A study of Arabidopsis thaliana with 6 samples.

Results

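Transcripts of the chloroplast and mitochondrial genomes were followed in wild-type Arabidopsis thaliana (Col-0) treated with aphid saliva (Myzus persicae, the green peach aphid) and in controls. The members were the rows of the value table whose probe set number lies from 244901 to 245055, except those annotated to a nuclear locus. The rule gave 138 of the 22810 probe sets on the ATH1 array. Of these, 77 are annotated to a chloroplast gene, 13 to a mitochondrial gene and 48 have no gene name in the tables used here. The other 17 rows in the range were left out because they are annotated to nuclear loci, 5 of them numbered AT2G07 and 12 numbered AT2G26. There were 3 saliva arrays and 3 control arrays, all of Col-0 plants that were 3 weeks old and had not bolted. Plants had been grown on soil at 23 °C with a 16 h photoperiod. Which tissue was taken, how and for how long saliva acted, and what the controls were given are not stated in the labels. The labels also do not say whether replicates were separate plants, so the p-values speak only of the spread from array to array, possibly technical.

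Chloroplasts and mitochondria keep small genomes of their own, left from the bacteria they descend from. The chloroplast genome encodes core subunits of the photosystems (psa and psb), the cytochrome b6f complex (pet), the NADH dehydrogenase-like complex (ndh) and ATP synthase (atp). It also encodes the large subunit of Rubisco (rbcL), ribosomal proteins (rpl, rps) and a bacterial-type RNA polymerase (rpo), and most of its genes are read in long shared transcripts. The mitochondrial genome encodes subunits of respiratory complex I (nad) and cytochrome c oxidase (cox), and proteins that mature cytochrome c (ccm). Both organelles import most of their proteins from nuclear genes. Organelle transcripts mostly lack the stable poly(A) tails of nuclear mRNA, and the 3' labelling kit named in the labels primes on such tails. How that affects these signals was not tested.

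By annotation, the genes of all 77 chloroplast probe sets lie on the chloroplast genome in RefSeq, and the mitochondrial ones were matched by symbol. This could not be checked for the 48 unnamed ones, of which 13 lie in the stretch of numbers shared with AT2G26 loci. Chromosome 2 carries a large copy of mitochondrial DNA, so transcripts of the nuclear and the mitochondrial copy are hard to separate there. As a check of tissue, LHCB4.1, a nuclear light-harvesting gene of green tissue, had signals of 5403, 6272 and 6161 on saliva arrays, against 6769, 7113 and 6738 on control arrays. Of root markers, PYK10, EXPA7 and EXPA18 had no signal above 11.2 in either group, too dim to be tested. The array scaling was shared, with a median signal between 32.2 and 33.2 on every array.

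Saliva was compared with control on log2(signal + 16) with limma. Of the 138 members, 98 passed a filter that left out the dimmest 40% of probe sets, and 40 did not. The named ones that passed were 74 of 77 chloroplast and 7 of 13 mitochondrial probe sets, and 17 of 48 unnamed ones passed. With Benjamini-Hochberg adjustment over all 13647 tested probe sets, 0 of the 98 members passed an adjusted p of 0.05 in limma, against a background of 0.0586% of all tested probe sets (8 in number). The lowest adjusted p among the members was 0.200, for chloroplast rps3. At an unadjusted p under 0.05 there were 9 members lower with saliva, where the background was 4.82%, and 3 higher, where it was 5.39%. Those 9 are 9.18% of the 98. The 3 saliva values lay wholly below the 3 control values in 7 members (background 7.72%) and wholly above in 4 (background 7.8%). With 7.14% of the 98, the count without overlap on the lower side was near its background. These counts include unnamed probe sets. Among the 81 tested members with a gene name, 4 lay wholly below (4.94%) and 3 wholly above. Each difference below is saliva minus control on the log2(signal + 16) scale with its standard error, and none of them passed the adjusted threshold.

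Most chloroplast differences were small and below 0. Of the 74 tested chloroplast probe sets, 59 were lower and 15 higher with saliva, with a median difference of -0.10, while 48.5% of all tested probe sets were lower and their median was 0.0057. The differences ran from -0.53 for rpl22 to 0.18 for one of the probe sets of rps12. The median moved to -0.053 without saliva replicate 1, to -0.042 without control replicate 2 and to -0.045 with quantile normalization. Because the arrays carried bulk RNA, fewer cells with chloroplasts and less chloroplast RNA per cell cannot be told apart. Neither can be told apart from a shift shared with other bright probe sets, described below. Whether chloroplast RNA changed at all was not tested.

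**Figure D1:**
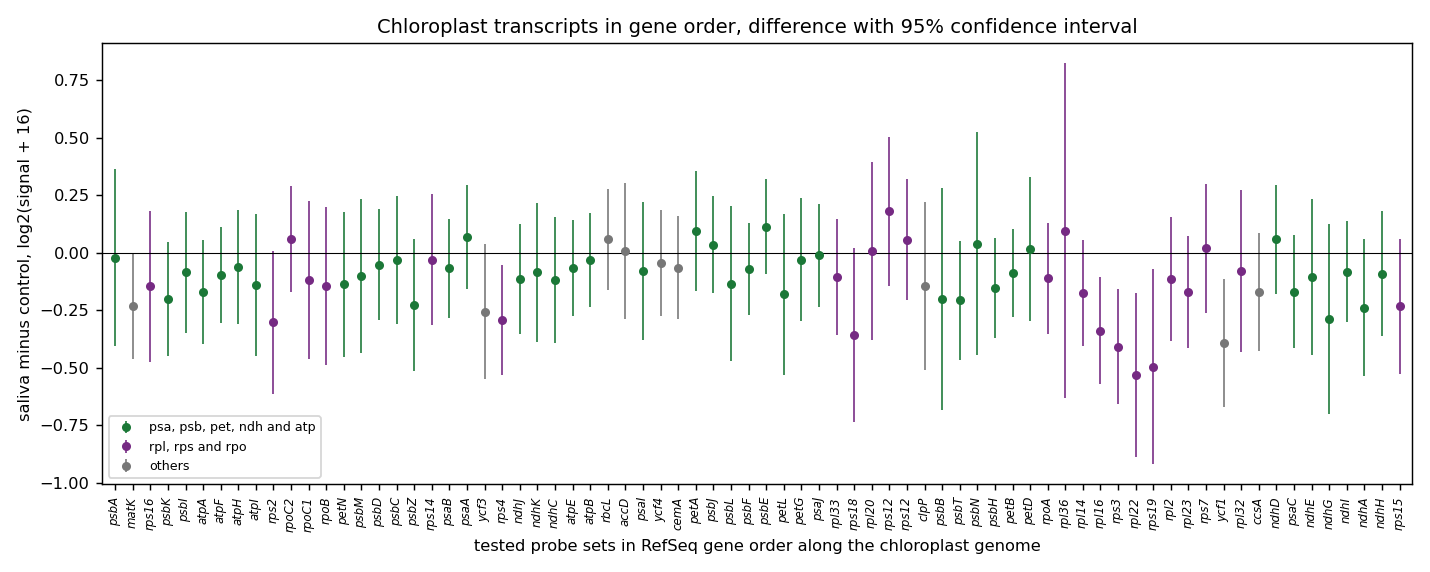
Saliva minus control difference on the log2(signal + 16) scale for the 74 tested chloroplast probe sets (points) with 95% confidence intervals (lines, not adjusted for the number of tests), in RefSeq gene order and coloured by gene prefix. The neighbours rpl16, rps3, rpl22 and rps19 lie between -0.53 and -0.34, and rpl36 has the widest interval.

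The lowest single values were those of the ribosomal protein genes rpl22, rps19 and rps3. By median, the class of other chloroplast genes was lower, at -0.15. The 24 probe sets of rpl, rps and rpo genes had a median of -0.13, with 18 lower and 6 higher. Leaving out single arrays moved that median between -0.23, without control replicate 3, and -0.092, without control replicate 2. It was -0.20 without saliva replicate 2, -0.11 without saliva replicate 1 and -0.11 with quantile normalization. The groups did not overlap, with saliva lower, in 4 of them, or 16.7% (7.72% of all tested probe sets), and these are rps3, rpl22, rpl16 and rpl14. Of these, rps3, rpl22 and rpl16 stand with rps19 in one row on the chloroplast genome in RefSeq, in the order rpl14, rpl16, rps3, rpl22 and rps19, within a cluster of ribosomal protein genes that chloroplasts share with bacteria. That they are neighbours was seen after their values, and no test of the cluster was made.

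The rps3 gene encodes a protein of the small ribosomal subunit. Its signals were 1049, 919 and 930.4 on saliva arrays, against 1269, 1492.5 and 1122 on control arrays. All 3 saliva arrays lay below all 3 control arrays. The difference was -0.41 ± 0.12 (limma adjusted p = 0.200), with a 95% interval of -0.66 to -0.16 before adjustment, and it ran from -0.51 to -0.30 when single arrays were left out.

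The rpl22 gene encodes a protein of the large subunit. Its signals were 836, 543 and 961 on saliva arrays, against 1044, 1184 and 1087 on control arrays. Saliva replicate 2 was far lower than the others of its group, and the groups did not overlap. The difference was -0.53 ± 0.17 (limma adjusted p = 0.249), and -0.29 without saliva replicate 2.

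The rpl16 gene, also of the large subunit, had signals of 356, 354 and 335 on saliva arrays, against 502, 422 and 415 on control arrays. The saliva arrays were close together and below every control array. The difference was -0.34 ± 0.11 (limma adjusted p = 0.261). For rps19, of the small subunit, the signals were 644, 1065 and 659 on saliva arrays, against 1249, 1272 and 811 on control arrays. Here saliva replicate 2 lay above control replicate 3, so the groups overlapped. The difference was -0.50 ± 0.20 (limma adjusted p = 0.399).

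The named genes directly beside these neighbours had values nearer to 0. On one side rpl14 differed by -0.18 ± 0.11, although its groups did not overlap, with 203, 199 and 180.4 on saliva arrays, against 210.2, 238 and 216 on control arrays. On the other side rpl2 differed by -0.11 ± 0.12 and rpl23 by -0.17 ± 0.11, both measured by probe sets annotated to 2 gene copies. The rpl36 gene differed by 0.096 ± 0.34, a value that rests on 1 array: control replicate 1 had 264, while the other 2 control arrays had 931 and 834 and the saliva arrays had 685, 713 and 522. Without control replicate 1 the rpl36 difference was -0.46. The unnamed probe set 244979_at, numbered between rpoA and rpl36, differed by -0.35. Where the lower values end on that side was not tested.

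Elsewhere on the chloroplast genome, rps4 differed by -0.29 ± 0.11 (limma adjusted p = 0.367), with 2619.8, 3078 and 2506 on saliva arrays, against 3670.0, 3439.5 and 2947 on control arrays. One saliva array lay above the lowest control array. The rps18 gene differed by -0.36 ± 0.17 and rps2 by -0.30 ± 0.14, each with groups that overlapped. The rps18 value was -0.18 without control replicate 1 and -0.58 without control replicate 3. The rpl33 gene differed by -0.11 ± 0.12. The 2 probe sets of rps12 were on the other side of 0, at 0.18 ± 0.15 and 0.057 ± 0.12.

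The subunits of the chloroplast's bacterial-type RNA polymerase had values nearer to 0 than the lowest ribosomal protein genes. The rpoA gene had 1071, 866 and 1033 on saliva arrays, against 984, 1179 and 1043 on control arrays, and the groups were mixed. Its difference was -0.11 ± 0.11. The rpoB, rpoC1 and rpoC2 genes, which are read together, differed by -0.14 ± 0.16, -0.12 ± 0.16 and 0.061 ± 0.11. Thus 3 of the 4 subunits were below 0, and the median was -0.11. It was also -0.11 for the 9 rpl probe sets, and -0.23 for the 11 rps probe sets.

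The 41 tested probe sets for photosynthetic electron transport and ATP synthase (psa, psb, pet, ndh and atp) lay in a narrower band. Of these, 34 were lower and 7 higher with saliva, with a median of -0.085 and a range of -0.29 (ndhG) to 0.11 (psbE). The groups did not overlap in 0 of the 41, and 0 had an unadjusted p under 0.05 in limma. Over all tested probe sets, 7.72% were lower and 7.8% higher without overlap, and 4.82% were lower and 5.39% higher at that p. The median was -0.067 for the 5 psa, -0.085 for the 15 psb, -0.058 for the 6 pet, -0.10 for the 9 ndh and -0.081 for the 6 atp probe sets. The median of the 41 came to -0.017 without saliva replicate 1, -0.018 without control replicate 2, -0.13 without control replicate 3 and -0.024 with quantile normalization. By complex, the lower ones were 4 of 5 psa, 12 of 15 psb, 4 of 6 pet, 8 of 9 ndh and 6 of 6 atp.

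**Figure D2:**
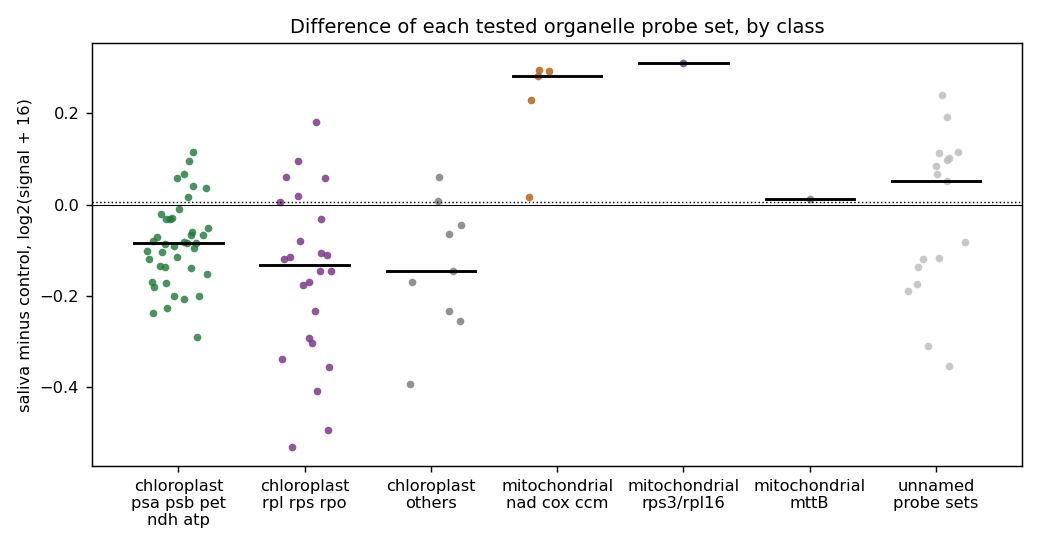
Saliva minus control difference on the log2(signal + 16) scale for each of the 98 tested members (points) by genome and gene prefix, with the median of each class (bars) and of all tested probe sets (dotted line). The photosynthetic class lies between -0.29 and 0.11, the rpl, rps and rpo class reaches -0.53, and the mitochondrial probe sets lie at or above 0.011.

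The reaction centre genes gave values on both sides of 0. The psaA and psaB genes, for the core pair of photosystem I, differed by 0.068 ± 0.10 and -0.067 ± 0.0998, and psaC, for its iron-sulphur subunit, by -0.17 ± 0.11. The psbA gene encodes the D1 protein of photosystem II, which is rebuilt often in the light. It had 2447, 3170.0 and 4002 on saliva arrays, against 3195, 4027 and 2518 on control arrays. The 2 groups covered much the same range, and the difference was -0.021 ± 0.18. The psbD gene, for the D2 protein, differed by -0.051 ± 0.11.

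Other psb genes had values on both sides of 0. The psbZ gene differed by -0.23 ± 0.13, psbK by -0.20 ± 0.11, psbT by -0.21 ± 0.12 and psbH by -0.15 ± 0.10, while psbF differed by -0.071, psbI by -0.085, psbJ by 0.036 and psbN by 0.040. For psbZ the difference was -0.066 at the nearest to 0 when single arrays were left out. The psbE gene, for a subunit of cytochrome b559, differed by 0.11 ± 0.095. In the cytochrome b6f complex, petB, for cytochrome b6, had 4874, 5401 and 5170.3 on saliva arrays, against 5466, 5796 and 5155 on control arrays. Its groups overlapped, with a difference of -0.087 ± 0.089. The petA gene, for cytochrome f, differed by 0.095 ± 0.12, and petD, for another core subunit, by 0.016 ± 0.14.

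Among the ndh genes, which serve cyclic electron flow around photosystem I, ndhA had 1448, 1540 and 1509 on saliva arrays, against 2165, 1862 and 1375 on control arrays. The saliva arrays were close together, while control replicate 3 lay below all of them. The ndhA difference was -0.24 ± 0.14. The ndhG gene, lowest of the ndh set, differed by -0.29 ± 0.19, and its control arrays were far apart at 84.5, 172 and 151. The ndhF and ndhB probe sets were under the filter. For ATP synthase, atpB, which encodes the catalytic beta subunit, had 6798, 8345 and 8087 on saliva arrays, against 7836, 7797 and 8002 on control arrays. One saliva array lay below the control arrays and the other 2 above, for a difference of -0.031 ± 0.095. The atpE gene, which overlaps atpB in its transcript, differed by -0.066 ± 0.097.

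The remaining 9 tested chloroplast probe sets had a median of -0.15, with 7 lower and 2 higher. That median was -0.061 without saliva replicate 1, -0.25 without saliva replicate 3 and -0.074 with quantile normalization. The rbcL gene, for the subunit of Rubisco that fixes carbon dioxide, had 669.9, 699 and 689 on saliva arrays, against 685, 699.8 and 594 on control arrays. Its groups overlapped and the difference was 0.059 ± 0.10. The ycf1 gene, whose protein has been described as part of the import machinery of the inner envelope, was the lowest of these. It had 246, 285 and 323 on saliva arrays, against 405, 409.8 and 321 on control arrays, so that saliva replicate 3 lay just above control replicate 3. The difference was -0.39 ± 0.13 (limma adjusted p = 0.279), and its probe set is annotated to 2 gene copies.

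Among the other genes of the class, saliva arrays were close together for some and spread for others. The matK gene, for an intron maturase, had 1674, 1664 and 1741 on saliva arrays, against 2219, 2059.8 and 1726 on control arrays, with a difference of -0.23 ± 0.11 and a narrow saliva group. The ycf3 gene, for an assembly factor of photosystem I, differed by -0.26 ± 0.14. The ccsA gene, for cytochrome c synthesis, differed by -0.17 ± 0.12, cemA, for an envelope membrane protein, by -0.064 ± 0.10, and clpP, for a protease subunit, by -0.15 ± 0.17. The clpP saliva arrays were far apart, at 2462, 2002 and 3566, against 2688, 2689.8 and 3297 on control arrays. The accD gene, for a subunit of the enzyme that starts fatty acid synthesis, differed by 0.0081 ± 0.14. The ycf2 probe set was under the filter.

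**Figure D3:**
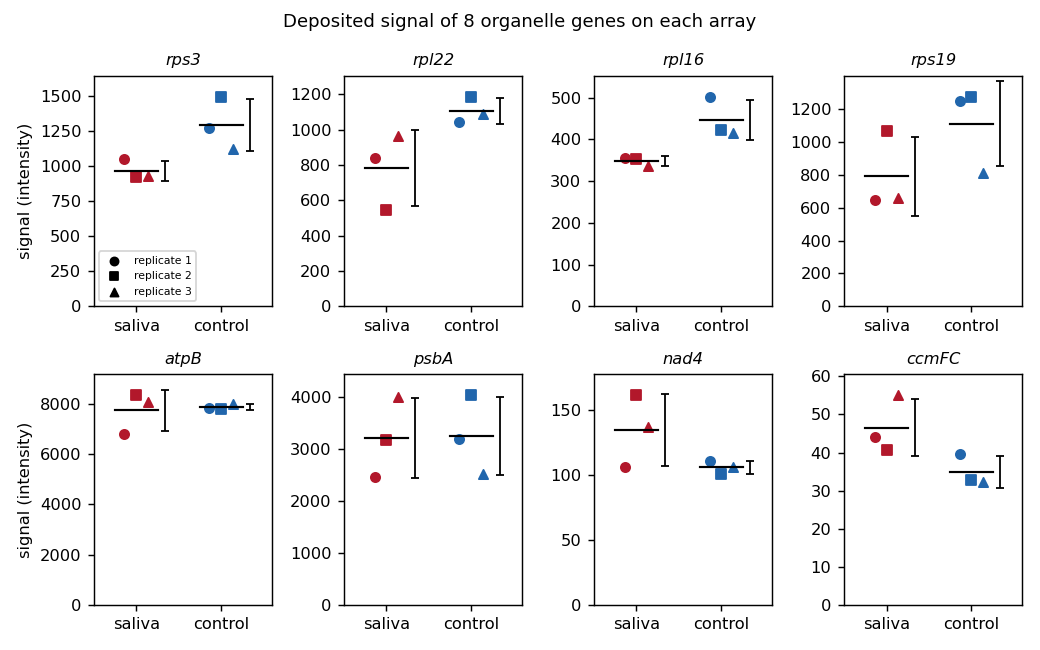
Deposited signal (intensity, linear scale from 0) of rps3, rpl22, rpl16, rps19, atpB, psbA, nad4 and ccmFC on each saliva (left) and control (right) array. Horizontal bars are means and vertical bars are 1 SD (n = 3); rps3, rpl22 and rpl16 have all saliva arrays below all control arrays, and psbA has mixed groups.

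Single arrays set much of the chloroplast values. For each array, the deviation of every tested chloroplast probe set from its own mean over the 6 arrays was taken, and the median of these was read. It was -0.15, 0.055 and -0.012 on saliva arrays, against 0.032, 0.18 and -0.060 on control arrays. Saliva replicate 1 was the lowest array and control replicate 2 the highest, and the groups overlapped. Chloroplast probe sets took 3.33%, 3.75% and 3.65% of the summed signal on saliva arrays, against 3.72%, 3.98% and 3.54% on control arrays. The ribosomal and polymerase genes gave medians of -0.13, 0.048 and -0.11 on saliva arrays, against 0.15, 0.19 and -0.042 on control arrays, which overlapped as well. Within groups, the median SD of a tested chloroplast probe set was 0.16 on the log2 scale, against 0.14 over all tested probe sets.

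Other probe sets with high signals were lower with saliva too. Among the 550 tested probe sets outside the members whose mean log2 value reached 10, 68.9% were lower, with a median of -0.081. The 39 chloroplast probe sets above the same limit had a median of -0.085, with 84.6% lower. The groups did not overlap, with saliva lower, in 2.56% of these 39 and in 19.6% of those 550, and in 7.72% of all tested probe sets. On single arrays the median deviation of the 550 was -0.063, -0.014 and -0.022 with saliva, against 0.041, 0.048 and 0.036 in controls, and the groups did not overlap. The part of this shift in the chloroplast values was not tested, and the limit of 10 was chosen after the values had been seen.

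**Figure D4:**
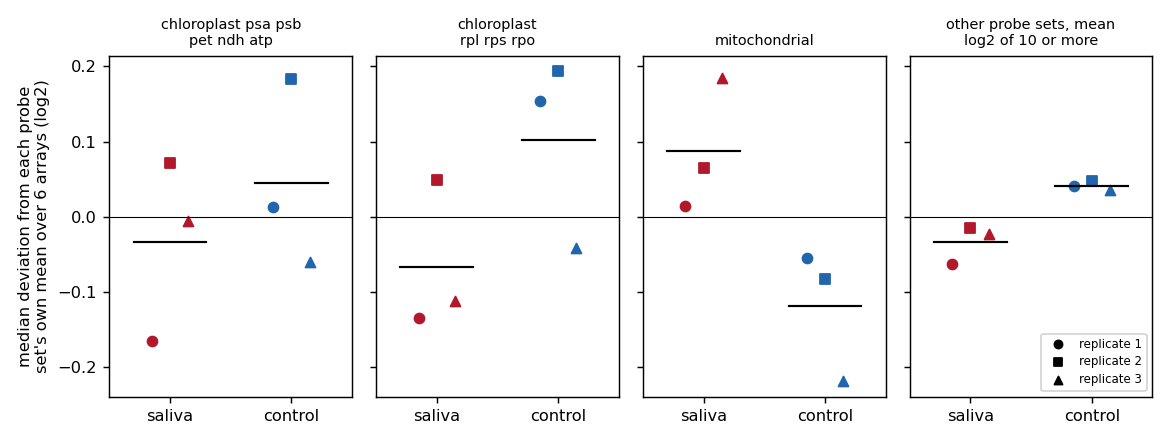
Median deviation (log2) of the probe sets of 4 sets from their own means over the 6 arrays, 1 point per array, with saliva left and control right; bars are group means. Saliva replicate 1 is lowest and control replicate 2 highest in both chloroplast panels, while mitochondrial probe sets and other bright probe sets show no overlap of the groups.

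Mitochondrial probe sets were dim, and those that passed the filter lay above 0. The 7 tested ones had differences of 0.011 to 0.31 with a median of 0.28, and the other 6 of 13 were under the filter. As the filter can favour a probe set that is high in 1 group, the median over all 13 without a filter is given beside it, at 0.083. Differences of dim probe sets depend on the offset, and the median of the tested ones was 0.38 with an offset of 1 and 0.14 with an offset of 64. On single arrays the median deviation of the tested ones was 0.014, 0.066 and 0.18 with saliva, against -0.055, -0.083 and -0.22 in controls. The 9490 tested probe sets outside the members with a mean log2 value below 7.5 had a median difference of 0.013, with 53.4% higher.

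Among the complex I genes, nad4 had 106, 161 and 137 on saliva arrays, against 110.3, 100.5 and 106 on control arrays. One saliva array lay within the control range and the other 2 above it. The difference was 0.29 ± 0.14 (limma adjusted p = 0.489). For nad9 it was 0.23 ± 0.17, with control signals of 13.7, 17.4 and 29.7. The nad7 probe set had no signal above 6.87 and was under the filter.

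The cox2 gene, for subunit 2 of cytochrome c oxidase, had 38.8, 32.9 and 35.1 on saliva arrays, against 26.7, 32.9 and 20.5 on control arrays. The lowest saliva value and the highest control value were almost equal, at 32.93 and 32.89. The difference was 0.28 ± 0.14 (limma adjusted p = 0.530). The ccmFC gene, for cytochrome c maturation, had 44.1, 40.5 and 55.0 on saliva arrays, against 39.6, 32.8 and 32.3 on control arrays. All saliva arrays were above all control arrays, and the difference was 0.29 ± 0.13 (limma adjusted p = 0.488).

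A probe set annotated to both rps3 and rpl16 of the mitochondrion, ribosomal protein genes that neighbour each other there, differed by 0.31 ± 0.13 (limma adjusted p = 0.434), also without overlap. It had 65.3, 85.9 and 74.0 on saliva arrays, against 62.4, 60.9 and 48.8 on control arrays. The chloroplast genes of the same names differed by -0.41 and -0.34. The ccmFN1 gene differed by 0.018 ± 0.13 and mttB, for a protein of the twin-arginine translocation type, by 0.011 ± 0.20. The matR probe set was under the filter.

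A further 11 probe sets outside the numbered range are annotated to mitochondrial genes alone (nad1, nad2, nad5 and cox1). Of these, 6 passed the filter, 6 of 6 were above 0 and 0 passed the adjusted threshold in limma. Of the 9490 dim tested probe sets outside the members, 53.4% were higher. Most of the 6 are nad1 probe sets and so not separate genes, and the filter can favour a probe set that is high in 1 group. Signals of those under the filter pointed both ways. The cox1 probe set, for subunit 1 of cytochrome c oxidase, had 47.8, 67.8 and 79.1 on saliva arrays, against 53.8, 55.5 and 50.1 on control arrays. Saliva replicate 1 was the lowest of the 6 arrays, and the difference was 0.21 ± 0.15. Another 11 probe sets outside the range are annotated to a mitochondrial gene together with a nuclear locus, among them atp1, atp9, cob and cox3. Of those 11, 7 passed the filter, 7 of 7 were above 0 and 0 passed the adjusted threshold in limma. The limit of the filter and the share of 53.4% apply to them too, and their mitochondrial and nuclear copies cannot be told apart.

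The unnamed probe sets were mixed, with 9 of the 17 tested higher and 8 lower. Probe set 244979_at had 1009, 874 and 891 on saliva arrays, against 1289, 1267 and 1015 on control arrays. Its saliva arrays were all below its control arrays, with a difference of -0.35 ± 0.11 (limma adjusted p = 0.266). Its number lies between those of rpoA and rpl36. Probe set 245042_at, numbered among AT2G26 loci, had 179, 175 and 172 on saliva arrays, against 221, 220.1 and 223 on control arrays, with very little spread in either group. Its difference was -0.31 ± 0.10 (limma adjusted p = 0.267). Probe set 245043_at differed by 0.24 ± 0.11. Of the 35 unnamed probe sets below the AT2G26 stretch, 6 passed the filter, 2 higher and 4 lower.

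Nuclear genes that serve the same complexes or the transcription of organelle genes were listed by locus, 56 in all. The array annotation names 10 of them and the filter kept 9. In limma 0 rose and 0 fell at the adjusted threshold (0.0586% of all tested probe sets passed it). There were 3 above 0, 6 below, 1 lower at an unadjusted p under 0.05 and a median of -0.040. Over all tested probe sets, 48.5% were below 0 and 4.82% were lower at that p. PSBY, for a small subunit of photosystem II, had 3529.6, 3399.5 and 3699.7 on saliva arrays, against 4277, 4170.1 and 4295 on control arrays, and the groups did not overlap. Its difference was -0.26 ± 0.086 (limma adjusted p = 0.275). PSBW, of the same photosystem, differed by -0.16 ± 0.096 and ATPC1, of the chloroplast ATP synthase, by -0.17 ± 0.098, both without overlap. Saliva was lower without overlap in 7.72% of all tested probe sets. PSBY, PSBW and ATPC1 are bright, and of the 550 bright probe sets above, 68.9% were lower and 19.6% lower without overlap. PSAE1 and PSAN, of photosystem I, differed by 0.040 ± 0.11 and -0.13 ± 0.094. The mitochondrial genes CYTC-1, CYTC-2, COX5B and FRO1 differed by 0.038 ± 0.13, 0.17 ± 0.16, -0.039 ± 0.10 and -0.040 ± 0.10. The sigma factors and polymerase-associated proteins that direct chloroplast transcription were not named on the array in the tables used here. Of the listed phage-type polymerases only RPOTMP was named, and it was under the filter. No listed gene of transcription was therefore among the 9 tested.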

How the data were processed

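The authors deposited 1 intensity (linear signal) for each probe set of each of 6 ATH1 arrays. Per the submitters' processing notes, MAS5, GCOS and limma were used, with roles and versions not stated there. Every array had the same 2% trimmed mean of 100.01, so no rescaling was done. The 64 control probe sets were left out, log2(signal + 16) was taken, and the 40% of the remaining 22746 with the lowest mean over all arrays were left out, which kept 13647 with a mean of at least 5.04. This offset shrinks the differences of dim probe sets.

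The comparison of saliva with control used limma 3.58.1 under R 4.3.3 (a linear model and moderated statistics with an intensity trend), two-sided, and p-values were adjusted by Benjamini-Hochberg over all tested probe sets. The fit was tested on simulated data whose planted differences were larger than that of any member. Differences of the size seen here were not examined in this way. The number of arrays limits the precision. Chloroplast probe sets were named through gene IDs, and mitochondrial ones by symbol or synonym, in a RefSeq gene table of TAIR10.1, used for names and gene order alone. Levels are not compared between probe sets.

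Named members were, in each class, the 4 with the smallest unadjusted p and the 3 with the highest mean, plus a list of well-known genes. The genes rps19, rpl14, rpl23, rpl36, rps18, rps2, rps12, ndhG, psaC, psbE, psbF, psbH, psbI, psbJ, psbN, petA, the joint rps3 and rpl16 probe set and the unnamed probe sets were added after their values were seen. Members and lists were chosen with earlier results of these data known.

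The alternatives were other offsets, filters and scalings, no trend, array weights, a replicate block, probe sets made for 1 transcript alone and each array left out.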

Additional observations from a re-analysis of the deposited data

How the results depend on the processing

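With every alternative, 0 members and 0 of the nuclear partner genes passed the adjusted threshold in limma. The count over all probe sets, 8, ran from 1 to 53 and was 29 with the replicate block and 9 with median centring. The members without overlap ran from 6 to 25 lower and 2 to 8 higher, with the high counts where an array was left out. With fewer arrays, groups separate more easily for any probe set. The share over all tested probe sets was 7.72% lower and 7.8% higher with all arrays. It is not given for the other settings, so the high counts have no background beside them. The chloroplast median ran from -0.14 to -0.042 and stayed below 0. The mitochondrial median came to 0.38 (offset 1), 0.14 (offset 64) and 0.083 (no filter), where the offset's own scale and the added dim probe sets change it. With a 60% filter no value could be had for mttB, the only tested gene of its class, nor for nad9, cox2, ccmFC, petD, psbN and rpoB. None could be had for the mttB class or the joint rps3 and rpl16 probe set with probe sets of 1 transcript alone. Deviations of same-numbered arrays correlated at -0.059, 0.12 and 0.15. Saliva replicates 2 and 3 correlated best with the control of the same number, and saliva replicate 1 with control replicate 2, at 0.089. Correlations this weak cannot show whether the replicate numbers pair the arrays. The block left the chloroplast median at -0.10. Of 848 values for the 57 named members, 800 kept their direction and side of the threshold and 48 changed sign. The cause was not tested. With quantile normalization psaB was 0.036, atpE 0.055, atpB 0.076, cemA 0.0056, psbF 0.011 and psbA 0.052. With median centring mttB was -0.0012 and accD -0.0046. With array weights ccmFN1 was -0.021, mttB -0.15, petD -0.056, psbN -0.058 and accD -0.087. Leaving out 1 array at a time gave -0.16 to 0.20 for mttB, -0.28 to 0.018 for rpoC1, -0.096 to 0.031 for psbD, -0.12 to 0.014 for psaB, -0.12 to 0.015 for atpE, -0.087 to 0.060 for atpB, -0.10 to 0.14 for accD, -0.14 to 0.0043 for cemA, -0.19 to 0.16 for psbA, -0.37 to 0.042 for clpP, -0.0092 to 0.13 for psaA, -0.014 to 0.19 for petA, -0.084 to 0.12 for ccmFN1, -0.079 to 0.14 for petD, -0.46 to 0.42 for rpl36, -0.32 to 0.00040 for rpoB, -0.069 to 0.13 for the second rps12 probe set, -0.18 to 0.29 for psbN, -0.010 to 0.095 for psbJ, -0.0029 to 0.093 for rpoC2 and -0.013 to 0.10 for rbcL.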
